A study of Mus musculus with 52 samples.

Results

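Among the predicted mouse genes that carry placeholder symbols of the form Gm and a number, 150 stood out for their level after 2 days of a totipotency medium. They were chosen from 27593 such symbols in a table of 55291 genes, as the 150 with the largest ratio of mean CPM (a gene's counts over the library total, scaled to 1e6) in treated cells to untreated cells. The ratio was taken after adding 0.1 CPM to both means, and only the 376 symbols whose treated mean was at least 5 CPM were ranked. These values chose the genes, so the difference between treated and untreated cells of that experiment is a description here and is not tested. The last gene inside the limit was Gm15155, with 9.75 CPM in treated and 0.267 CPM in untreated cells, after Gm29824 and Gm13498. Just outside lay Gm46392, with 9.18 CPM in treated and 0.248 CPM in untreated cells, and then Gm13228 and Gm29724.

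Poly(A) RNA was sequenced in 52 libraries of 26 groups, with n = 2 libraries each. All cells were mouse and labelled wild type (WT), and all but 4 libraries came from the line mc6-1/Mu-mClover3-10#, an extended pluripotent stem cell (EPSC) line. In a first set of 12 libraries, EPSCs received for 2 days the totipotency medium with all its small molecules (S1), CHIR-99021 with PD0325901, CHIR-99021 with CD1530, CHIR-99021 with Elvitegravir, or CHIR-99021 alone, and untreated EPSCs stayed in LCDM medium (EPSC libraries 1 and 2). CHIR-99021 inhibits the kinase GSK3, PD0325901 inhibits MEK, CD1530 activates the retinoic acid receptor gamma, and Elvitegravir was developed against the HIV integrase. In a second set of 40 libraries, the line 2i-0606-td-ES, made of embryonic stem cells (mESCs), was given the totipotency medium for 2 days or left in 2i/L medium. EPSCs of that set were kept in the totipotency medium over 25 or 38 passages (P25, P38) or left in LCDM medium (EPSC libraries 3 and 4). Aggregates of S1 cells spent 1 day (S2) and a further day (S3) in the 4C-64C medium, and later aggregates (S5) spent 3 days in a peri-implantation medium in Aggrewell plates, starting from the first day of S4. S2 and S3 were also made without 8Br-cAMP, Birabresib, CHIR-99021 or CD1530, and S5 without Activin A, BMP4, FGF4 or XAV 939. Birabresib blocks BET bromodomain proteins and XAV 939 inhibits tankyrases. Nothing in the labels says that both libraries of a group were grown apart, so p-values measure the spread between these libraries, which may be technical. In bulk RNA, fewer cells that express a gene and less RNA per cell cannot be told apart.

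A mouse embryo starts its own transcription at the 2-cell stage, when a burst of genes and of repeat-derived transcripts is switched on for a short time. Many of these genes belong to multicopy families with predicted names, among them the Zscan4 telomere regulators, the Tdpoz and Pramef families and the Eif1a-like genes. A small share of cultured mouse stem cells enters a 2-cell-like state of this kind and leaves it again, and chemical media have been made to hold cells there. A Gm symbol is given to an annotated locus without a known function, so it can stand for a coding gene, a long noncoding RNA (lncRNA) or a pseudogene.

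Of the 150 genes, 139 were found by symbol in GENCODE M21, which uses the same build as the counts (GRCm38, also called mm10). They comprised 58 lncRNA genes, 31 protein-coding genes, 26 processed pseudogenes, 23 unprocessed pseudogenes and 1 locus of unclear status (class TEC). The remaining 11 were not in that release, and 5 of these had an entry in RefSeq. The lncRNA genes were long and thinly exonic, with a median span of 47648.5 bases of which a median of 2.41% was exonic. The protein-coding genes had a median span of 3074 bases with 52.3% exonic, and the processed pseudogenes 2232 bases, all of it exonic.

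Many of the genes lay side by side. On chromosome 12, 17 of them started between positions 87480108 and 88320122, and 13 of these resembled Eif1a, a translation initiation factor that places the ribosome at the start codon, at 86.4% to 95.2% identity. A run of 7 on chromosome 3, starting between 93628640 and 94157631, resembled Tdpoz5 or Tdpoz4, which encode proteins with TRAF and POZ domains, at 85.5% to 97.3% identity. Chromosome 13 held a run of 6 between 119864848 and 120239111, and 4 of these resembled Tcstv1, a gene known from 2-cell embryos, at 78.1% to 95.7%. Further groups resembled Crnkl1, a splicing factor (4 genes), Rbbp6, a ubiquitin ligase (3 genes), Tmem92 (3 genes), Rexo1 (2 genes), Alyref, an mRNA export adaptor (2 genes), and Pramef6 (2 genes). The 4 Crnkl1-like genes were 98.6% to 100% identical to each other and the 13 Eif1a-like genes 87.6% to 99.5%. The sources used here do not give how reads matching several copies were counted, so the level of a single copy in these families is uncertain.

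A quite different feature joined genes on separate chromosomes. The first 110 bases of the transcript of the member Gm38258 were searched at transcript starts. A match was counted when at least 60 bases aligned at 90% identity or more, beginning within the first 30 bases of the transcript. This stretch was found in 29 of the 139 annotated members (20.9%), Gm38258 included, on 13 chromosomes, and 23 of the 29 were lncRNA genes. Over all of GENCODE M21, 103 genes (0.186%) had it, members included. The stretch was taken from a member, so these shares are a description. The starts of 5 lncRNA transcripts are shown because they carry this stretch at unrelated loci. They are printed from the first base of the GENCODE M21 transcript, 5′ to 3′, and capitals mark the 60 bases in runs of 12 or more that were identical in all 5. The genes lie at chr3:30552697-30564243 (minus strand), chr7:73670299-73672390 (minus), chrX:77802351-77803280 (minus), chr4:106241216-106290026 (plus) and chr10:66809840-66822354 (plus) of GRCm38, in the order shown.
Gm38258: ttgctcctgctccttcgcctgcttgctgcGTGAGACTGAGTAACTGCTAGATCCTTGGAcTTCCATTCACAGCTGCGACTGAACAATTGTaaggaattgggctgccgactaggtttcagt
Gm44736: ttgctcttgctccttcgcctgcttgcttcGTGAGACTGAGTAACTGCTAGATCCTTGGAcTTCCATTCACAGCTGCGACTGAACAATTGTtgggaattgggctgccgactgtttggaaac
Gm14742: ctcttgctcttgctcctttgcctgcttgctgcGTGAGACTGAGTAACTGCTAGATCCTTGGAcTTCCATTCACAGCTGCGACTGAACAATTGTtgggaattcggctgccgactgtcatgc
Gm12724: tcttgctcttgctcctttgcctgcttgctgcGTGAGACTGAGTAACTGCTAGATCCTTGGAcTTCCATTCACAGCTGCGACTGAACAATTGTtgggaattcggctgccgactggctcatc
Gm47896: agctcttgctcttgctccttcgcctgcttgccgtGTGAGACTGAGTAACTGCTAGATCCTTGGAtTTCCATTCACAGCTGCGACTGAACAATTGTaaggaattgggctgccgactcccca

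RefSeq (GRCm38.p6) gave promoters, from 250 bases before to 50 bases after the start, for 36 of the 150 genes. In 4 of the 36 the sequence before the RefSeq start was shared as well (Gm12724, Gm12790, Gm21293 and Gm4340, the others at 92.6% identity or more to Gm12724). This sequence is not particular to the 150 genes. Promoters of other genes matched that of Gm12724 too, for example Gm36456 (96.7%), Pemt (92.2%) and Pramel17 (89%). Those of Gm12724, Gm12790 and Gm4340 are shown because these genes lie apart in the genome, at chr4:106236872-106237171 (plus), chr4:101975056-101975355 (minus) and chr10:104193792-104194091 (plus), and were 94.5% to 96.3% identical over the window. That range comes from alignments of the whole window with gaps left out, while the 92.6% above is a BLAST identity, which counts gaps. Capitals mark the 222 bases in runs of 15 or more that were identical in all 3.
Gm12724: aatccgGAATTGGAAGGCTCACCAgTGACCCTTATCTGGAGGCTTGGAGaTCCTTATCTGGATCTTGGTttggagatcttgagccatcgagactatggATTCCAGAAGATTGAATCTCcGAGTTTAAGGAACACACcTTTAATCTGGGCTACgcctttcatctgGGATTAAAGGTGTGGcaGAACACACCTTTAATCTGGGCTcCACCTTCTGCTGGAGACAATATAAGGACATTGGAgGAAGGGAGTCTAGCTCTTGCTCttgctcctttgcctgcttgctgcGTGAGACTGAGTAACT
Gm12790: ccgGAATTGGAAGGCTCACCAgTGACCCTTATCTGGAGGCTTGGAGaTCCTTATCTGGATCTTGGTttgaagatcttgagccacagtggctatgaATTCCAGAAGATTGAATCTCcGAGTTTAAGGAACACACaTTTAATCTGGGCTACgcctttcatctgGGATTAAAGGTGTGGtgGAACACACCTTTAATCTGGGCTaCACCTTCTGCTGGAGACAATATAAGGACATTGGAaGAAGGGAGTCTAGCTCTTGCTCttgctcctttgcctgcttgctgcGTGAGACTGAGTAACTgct
Gm4340: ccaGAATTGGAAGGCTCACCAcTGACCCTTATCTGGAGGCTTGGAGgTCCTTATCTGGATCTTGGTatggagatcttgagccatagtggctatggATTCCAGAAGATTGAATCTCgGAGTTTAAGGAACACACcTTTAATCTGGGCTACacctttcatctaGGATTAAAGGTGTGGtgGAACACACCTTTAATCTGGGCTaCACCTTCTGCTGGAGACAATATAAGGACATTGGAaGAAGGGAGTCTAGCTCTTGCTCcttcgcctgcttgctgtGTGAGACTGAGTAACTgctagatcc

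Motifs were counted on both strands of the 36 promoters and of all 27025 promoters in the table. TGATTNA, a core bound by DUX-type homeodomains, lay in 36.1% of the member promoters, against 11.8% of all promoters, and GGATTA, bound by paired-like homeodomains such as OBOX, in 22.2% against 8.14%. AGGTCA, bound by nuclear receptors, lay in 11.1% of member promoters and 18.1% of all promoters, TATAAA in 11.1% and 15.7%, CTTTGAT, bound by TCF and LEF factors, in 8.33% and 4.29%, and TGCACAC, a ZSCAN4-bound run, in 5.56% and 5.02%. The whole DUX site, of which TGATTNA is a part, a spaced direct repeat of AGGTCA and the extended AGGTCA site of estrogen-related receptors lay in none of the member promoters, against 0.0407%, 0.0111% and 0.466% of all promoters. Several member promoters are near-copies of each other, as shown above, so these shares do not count independent sequences, and a match is a description of letters only.

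Libraries held from 16.6 to 108 M counts. The sets differed in how reads were assigned. Of genes nested without shared exons in another gene and well counted in the second set (738 genes), 93% were at 0 in all 12 libraries of the first set, against 0.613% of 14359 genes that are not nested, so the first set seems to have been counted over whole gene spans and the second over exons. Sox2, which lies within another gene, was listed at 0 throughout the first set. None of the 139 annotated members is nested in another gene, which their choice by first-set levels favoured. Members with long introns gain counts in the first set alone, and levels are therefore compared within a set. The spans of some members overlap other genes, for example Gm6999 (Olfm4), Gm28376 (Jph1), Gm14798 (Zfx) and Gm26691 (Cxxc4). How first-set reads in such overlaps were assigned is not known, and their part in the levels was not tested. In addition, 66.8% to 80.5% of small counts were even in 46 libraries, as when both mates of a pair are counted, and 40.7% to 42% in EPSC libraries 3 and 4, P25 and P38. In the marker check, 6 of 6 pluripotency markers were counted in mESCs and EPSC libraries 3 and 4, but also in every other group of the second set. That count thus does not tell the groups apart. The markers summed to 3265 and 3282 CPM in mESCs and to 3662 and 3657 CPM in EPSC libraries 3 and 4, the highest of the 26 groups. Blood markers were near 0 in every group.

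In S1 the 150 genes together reached 4040 and 4313 CPM, against 8.57 and 6.44 CPM in EPSC libraries 1 and 2. No count of any kind was found for 90 of the 150 in those EPSC libraries. Gm20767, a Tcstv1-like coding gene on chromosome 13, had 201 and 190 CPM in S1, against 0 and 0.0465 CPM in EPSCs. Gm5039, an Eif1a-like gene on chromosome 12, had 160 and 164 CPM in S1, against 0.0427 and 0.0465 CPM in EPSCs. Gm12794, a coding gene on chromosome 4, was at 107 and 104 CPM in S1 and at 0 in both EPSC libraries. Gm5989, a Crnkl1-like processed pseudogene on chromosome 6, had 201 and 205 CPM in S1, against 0.107 and 0.116 CPM in EPSCs. All 150 passed the filter on low counts and all were higher in S1 by the fit, as their choice ensured, where 18.7% of the 25056 tested genes rose. Markers of other lineages moved in the same contrast. Trophectoderm markers summed to 1382 and 1060 CPM in S1, against 38.2 and 39.5 CPM in EPSCs, extraembryonic endoderm markers to 1521 and 1344 CPM against 401 and 433 CPM, germ cell markers to 1498 and 1493 CPM against 23.1 and 21.7 CPM, and pluripotency markers to 253 and 284 CPM against 2106 and 2158 CPM. Their part in the levels of the 150 genes was not tested.

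**Figure D1:**
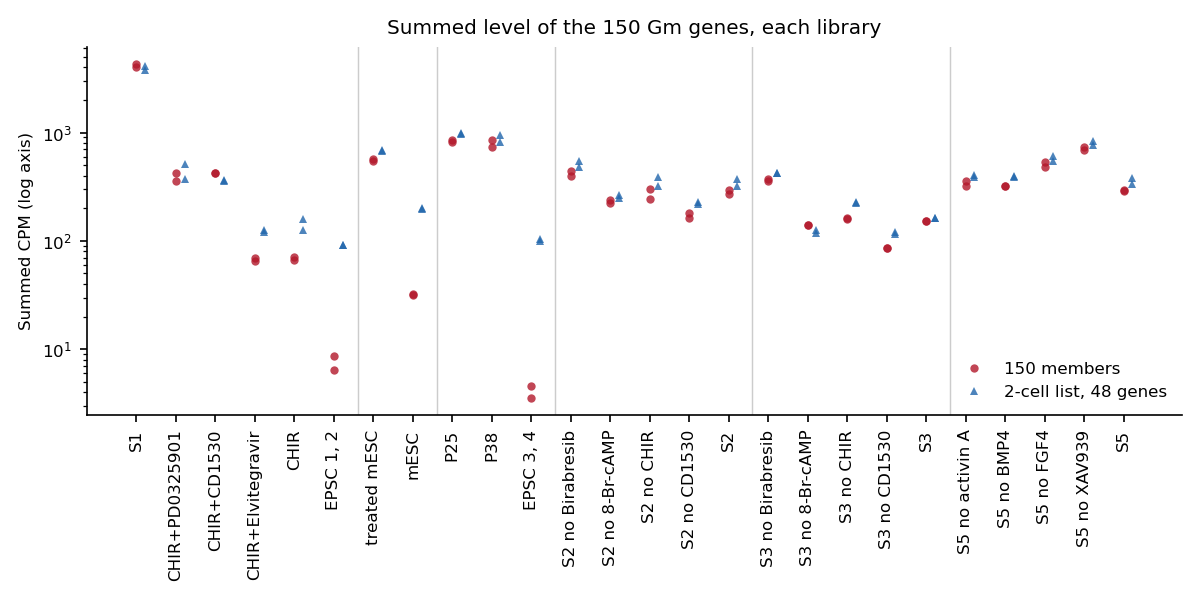
Summed CPM of the 150 genes in each of the 52 libraries, on a log axis, by group (circles), with the summed CPM of 48 known 2-cell genes outside the Gm names beside it (triangles). The S1 libraries sit at 4040 and 4313 CPM, P25 at 814 and 847 CPM, S3 without CD1530 at 86.1 and 86.3 CPM, and EPSC libraries 1 to 4 between 3.53 and 8.57 CPM.

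PD0325901 or CD1530, added to CHIR-99021 for 2 days, raised most of the genes. With PD0325901 added, 120 of 150 rose and none fell, where 3.27% of all tested genes rose. With CD1530 added, 139 rose and none fell, where 9.74% of all tested genes rose. The median log2 fold change of the 150 genes was 2.84 with PD0325901 and 2.96 with CD1530, with the 8 genes at 0 with CHIR-99021 alone set at a floor of 3 counts, and that of all tested genes was 0 in both comparisons. Elvitegravir added to CHIR-99021 gave no call (edgeR, Benjamini-Hochberg), where 0.00798% of tested genes were called in either direction. At an unadjusted p below 0.05, 16 of the 150 differed there, DESeq2 called 1, and without CHIR-99021 library 1 the edgeR count was 10. The 3 comparisons share the CHIR-99021 libraries. The summed level was 358 and 426 CPM with PD0325901, 423 and 426 CPM with CD1530, 65.2 and 69.3 CPM with Elvitegravir, and 66.2 and 71.0 CPM with CHIR-99021 alone.

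Gm5989 had 28.6 and 19.1 CPM with PD0325901, against 2.36 and 1.83 CPM with CHIR-99021 alone (log2 fold change 3.51 ± 0.19 SE, adjusted p = 1.45e-16, edgeR). With CD1530 the same pseudogene had 11.7 and 13.8 CPM (2.56 ± 0.19, adjusted p = 9.71e-14, edgeR). In Gm5989 the groups did not overlap, which describes this gene alone, and both additions lay far below the S1 libraries. Gm20767 had 11.7 and 17.9 CPM with PD0325901 and 16.4 and 18.8 CPM with CD1530, against 1.63 and 2.21 CPM with CHIR-99021 alone (log2 fold changes 2.95 ± 0.20 and 3.22 ± 0.20). Gm5541, a Tdpoz4-like unprocessed pseudogene on chromosome 3, had 0.608 and 1.59 CPM with PD0325901 and 1.89 and 1.62 CPM with CD1530, against 0.0221 and 0 CPM with CHIR-99021 alone. Its log2 fold changes were 5.87 ± 0.95 and 6.67 ± 0.89, both called. Gm8607, an Eif1a-like unprocessed pseudogene, had 1.13 and 1.31 CPM with CD1530 and no count with CHIR-99021 alone, which makes it at least 29.3-fold higher (floor of 3 counts over the group). Gm8038, another Crnkl1-like pseudogene, had 1.23 and 3.80 CPM with PD0325901, against 0.0441 and 0.152 CPM with CHIR-99021 alone (4.72 ± 0.69). By family, 12 of 13 Eif1a-like genes rose with PD0325901 and 13 of 13 with CD1530, 5 and 7 of 7 Tdpoz-like genes, and 4 of 4 Tcstv1-like and 4 of 4 Crnkl1-like genes with either.

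For most of the genes, either addition stayed far below the S1 level. The median member stood at 9.05% of its S1 mean with PD0325901, at 9.68% with CD1530, at 1.10% with Elvitegravir and at 1.23% with CHIR-99021 alone. The highest shares were 119.6% with PD0325901 (Gm11427) and 48.8% with CD1530 (Gm4779). These shares are a description, since the S1 level chose the genes. Log2 levels in S1 and with CD1530 correlated over the 150 genes with r = 0.90, and in S1 and with PD0325901 with r = 0.87, which is across genes that share their libraries and are not independent. Extraembryonic endoderm markers summed to 7197 and 7225 CPM with CD1530, against 460 and 383 CPM with CHIR-99021 alone, whereas with PD0325901 they summed to 372 and 336 CPM. Pluripotency markers summed to 1744 and 1325 CPM with PD0325901, against 739 and 645 CPM with CHIR-99021 alone. Trophectoderm markers summed to 248 and 242 CPM with PD0325901 and 609 and 621 CPM with CD1530, against 92.5 and 80.3 CPM with CHIR-99021 alone. The part of these markers in the rise was not tested.

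CD1530 and PD0325901, each with CHIR-99021, were also set against each other. With CD1530, 8 genes were higher and 5 lower than with PD0325901, together 8.67%, where 8.52% of all tested genes were higher, 8.03% lower and so 16.6% called in either direction. Gm48931, a processed pseudogene on chromosome 14 that is 99.6% identical to Acy3, had 9.88 and 8.41 CPM with CD1530, against 2.47 and 2.38 CPM with PD0325901 (log2 fold change 1.88 ± 0.26, adjusted p = 2.86e-07, edgeR). Gm49793, an lncRNA gene on chromosome 17, had 2.48 and 1.51 CPM with CD1530, against 0.523 and 0.460 CPM with PD0325901 (1.96 ± 0.69). Gm11427, a Slfn4-like unprocessed pseudogene on chromosome 11, went the other way. It had 1.18 and 1.75 CPM with CD1530, against 5.26 and 8.78 CPM with PD0325901 (-2.23 ± 0.32, adjusted p = 4.5e-07, edgeR). Gm21319, an Eif1a-like coding gene, was also lower with CD1530, at 2.03 and 1.75 CPM against 4.00 and 4.64 CPM with PD0325901 (-1.21 ± 0.33).

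In mESCs, whose libraries the choice did not use, the totipotency medium raised 116 of the 150 genes in 2 days, where 14.2% of all tested genes rose. A single gene, Gm20513, fell by the test, with no count in treated mESCs, against 0.212 and 0 CPM in mESCs, where 8.26% of all tested genes fell. The genes summed to 543 and 566 CPM in treated mESCs, against 31.4 and 32.6 CPM in mESCs. In mESCs 95 of the 150 had no count, and in treated mESCs 16 had none. A median log2 fold change was taken with zero groups set to a floor of 3 counts over the group and without the 22 members that had 3 counts or fewer in both groups. It was 4.83, against 0.04 for all tested genes. Germ cell markers summed to 893 and 904 CPM in treated mESCs, against 23.0 and 22.6 CPM in mESCs, trophectoderm markers to 303 and 301 CPM against 78.4 and 72.1 CPM, and feeder fibroblast markers to 967 and 966 CPM against 2076 and 1995 CPM. Their part in the change was not tested.

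Gm5989 had 54.9 and 54.4 CPM in treated mESCs and no count in mESCs, and was at least 1321-fold higher (adjusted p = 2.63e-24, edgeR). Gm16478, an Rbbp6-like processed pseudogene on chromosome 7, had 13.6 and 15.7 CPM in treated mESCs and none in mESCs, at least 351-fold higher. Gm5301, a second Crnkl1-like pseudogene, and Gm1995, a Rexo1-like one, were at least 202-fold and 192-fold higher. These pseudogenes were thus undetected before treatment and well counted after it. Gm5039 had 28.4 and 30.4 CPM in treated mESCs, against 0.272 and 0.482 CPM in mESCs (log2 fold change 6.18 ± 0.24, adjusted p = 8.79e-22, edgeR). Gm20767 had 15.1 CPM in both treated libraries, against 0.0605 and 0.152 CPM in mESCs (7.00 ± 0.31). Gm4779, a coding gene on chromosome X, was already present before treatment, with 61.3 and 58.7 CPM in treated mESCs, against 14.6 and 17.0 CPM in mESCs (1.86 ± 0.20). By family, all 13 Eif1a-like, 7 Tdpoz-like, 4 Tcstv1-like, 4 Crnkl1-like, 3 Rbbp6-like and 3 Tmem92-like genes rose. Among the 58 lncRNA genes 33 rose, and among the 26 processed pseudogenes 25 rose.

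In long-term culture in the totipotency medium the genes were high as well. At P25, 119 of 150 were higher than in EPSC libraries 3 and 4 and none lower, where 13.2% of all tested genes rose. At P38, 120 were higher and none lower, where 11.8% rose. Both comparisons use the same EPSC libraries. The sums were 814 and 847 CPM at P25, 728 and 847 CPM at P38, and 4.58 and 3.53 CPM in EPSC libraries 3 and 4, where 120 of the 150 had no count. The median log2 fold change, taken in the same way, was 4.81 at P25 with 21 members left out and 4.66 at P38 with 22 left out. Trophectoderm markers moved with them and summed to 945 and 976 CPM at P25, against 79.5 and 80.7 CPM in EPSCs, and feeder markers to 1299 and 1274 CPM against 665 and 654 CPM, and their part was not tested.

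Gm20767 had 48.5 and 51.4 CPM at P25, 35.0 and 46.2 CPM at P38 and no count in EPSCs, so that at P25 it was at least 648-fold higher (adjusted p = 3.97e-22, edgeR). Gm5989 had 98.6 and 107 CPM at P25 and 93.8 and 113 CPM at P38, against 0.0514 and 0.0511 CPM in EPSCs (log2 fold change at P25 10.79 ± 0.33). Gm18983, a processed pseudogene in the run on chromosome 12, had 26.8 and 25.8 CPM at P25 and none in EPSCs, at least 343-fold higher. Each of these genes had similar values in both libraries of a group, and none of their groups overlapped with EPSCs. Gm20767 and Gm18983 were named for their large rises here, which favours this. Gm12794 was at 19.6 and 18.3 CPM at P25 and at 0 in EPSCs, at least 247-fold higher. Gm13078, a Pramef6-like coding gene on chromosome 4, had 26.3 and 23.9 CPM at P25, against 0.0514 and 0 CPM in EPSCs (9.69 ± 0.46). All 60 genes with at least 50% exonic bases rose at P25, as did 29 of the 56 with under 10%.

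Between P38 and P25 no gene of the 150 was called (edgeR), where 0.339% of all tested genes were called in either direction. At an unadjusted p below 0.05, 2 of the 150 differed, and DESeq2 called 0. Log2 levels at P38 and P25 correlated with r = 0.99 over the 150 genes, again across genes.

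**Figure D2:**
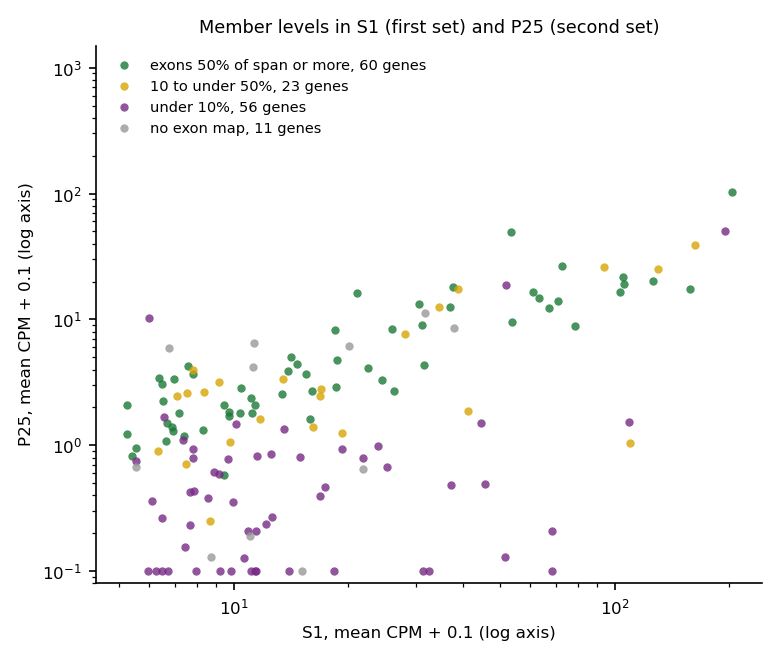
Mean CPM + 0.1 of each of the 150 genes at P25 (vertical) against that in S1 (horizontal), on log axes, with the exonic share of the gene span in colour. Genes with at least 50% exonic bases lie along a line (r = 0.88, 60 genes), and those with under 10% scatter below it (r = 0.31, 56 genes).

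Levels at P25 and in S1 come from sets that were counted in different ways, and the class of the gene moved with their ratio. Genes with under 10% exonic bases had a median of 0.288 CPM at P25 and 11.1 CPM in S1, those with 10% to under 50% had 2.51 and 16.1 CPM, and those with 50% or more had 3.46 and 15.0 CPM. Over all 40 libraries of the second set, 13 of the 150 genes collected 10 counts or fewer, among them Gm49729, Gm39094, Gm12649 and Gm49987 with 0. Gm49729 spans about 121 kilobases, of which 1.21% is exonic, and had a mean of 32.4 CPM in S1. Levels of treated mESCs and P25, counted over exons in both, correlated with r = 0.93 over the 150 genes.

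The response of mESCs (2 days) was set against that of EPSCs (P25, 25 passages), each relative to its own untreated cells, in a test of the difference of responses. It called 9 genes, all with the smaller response in mESCs, where 7.94% of all tested genes were called in that direction and 14% in either. The responses differ in cell line, starting medium, length of treatment and, it seems, in how read pairs were counted, which cannot be told apart. Gm4779 had 61.3 and 58.7 CPM in treated mESCs against 14.6 and 17.0 CPM in mESCs, and 48.5 and 51.2 CPM at P25 against 1.49 and 1.53 CPM in EPSCs (difference of log2 responses -3.08 ± 0.36, adjusted p = 1.62e-08, edgeR). Gm11427 had 26.4 and 27.1 CPM in treated mESCs against 12.3 and 11.2 CPM in mESCs, and 9.74 and 10.5 CPM at P25 against no count in EPSCs. In both genes the mESCs already had reads before treatment. The others called were Gm13078, Gm13083, Gm2016, Gm20513, Gm20767, Gm21761 and Gm5039.

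**Figure D3:**
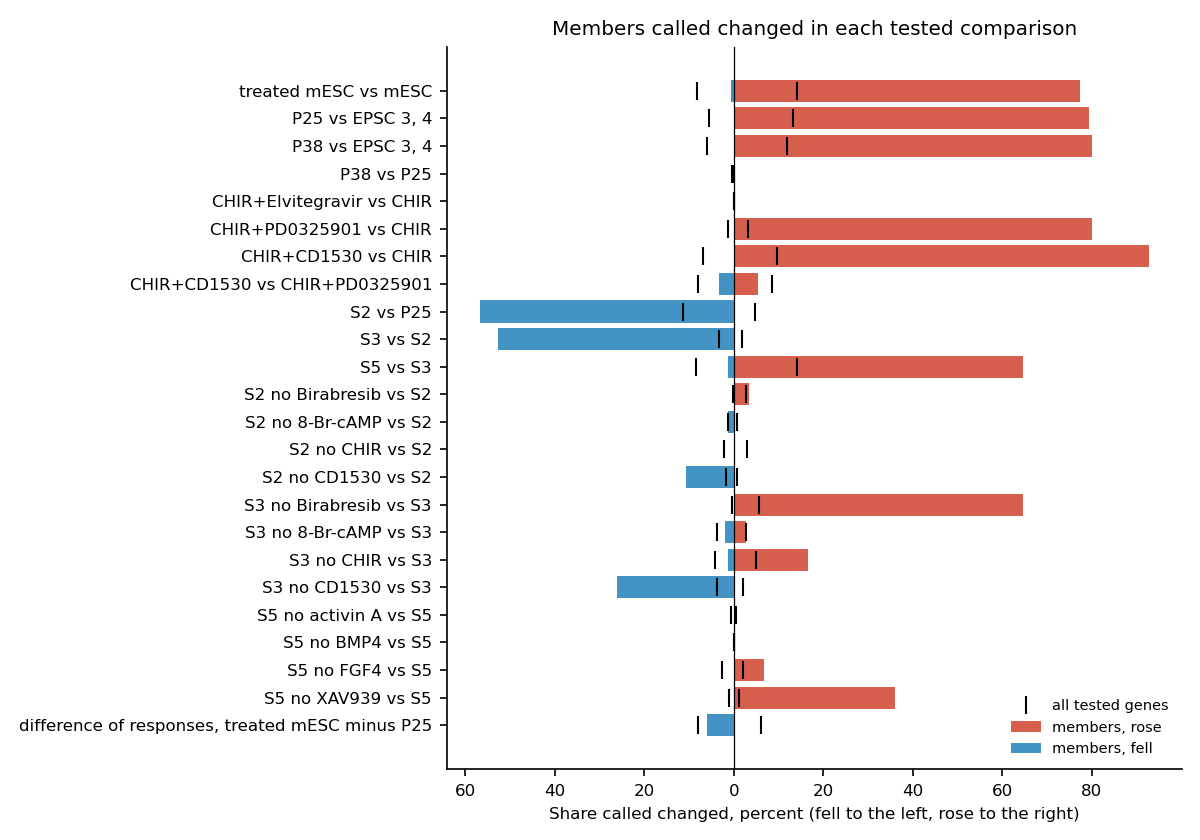
Percent of the 150 genes that rose (bars to the right) or fell (bars to the left) in each comparison (edgeR, adjusted p below 0.05, log2 fold change of at least 1 either way), with black ticks for all tested genes. Treated mESCs (116 genes), P25 (119) and S3 without Birabresib (97) have long bars to the right, and S2 against P25 (85) and S3 against S2 (79) to the left.

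In aggregates the genes were lower at S2 and lower again at S3. In S2, 85 of the 150 were lower than at P25 and none higher, where 11.4% of all tested genes fell. The S2 and P25 libraries seem to count read pairs differently, and the labels do not name P25 as the culture that S2 came from, and the part of both in this difference was not tested. In S3, 79 were lower than in S2 and none higher, where 3.37% of all tested genes fell. The sums were 271 and 294 CPM in S2, against 814 and 847 CPM at P25, and 154 and 152 CPM in S3. With zero groups at their floor and low members left out as above, the median log2 fold change was -1.69 for S2 against P25 (20 left out) and -2.14 for S3 against S2 (29 left out). Feeder markers summed to 230 and 220 CPM in S2, against 1299 and 1274 CPM at P25, and trophectoderm markers to 299 and 283 CPM against 945 and 976 CPM, and their part was not tested.

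Gm5989 had 18.8 and 21.8 CPM in S2, against 98.6 and 107 CPM at P25 (log2 fold change -2.28 ± 0.16), and 2.49 and 2.99 CPM in S3, which is again lower than in S2 (-2.93 ± 0.18, adjusted p = 2.75e-14, edgeR). Gm7957, an Rbbp6-like processed pseudogene, had 0.280 and 0.814 CPM in S3, against 5.87 and 5.45 CPM in S2 (-3.40 ± 0.29). Gm50193 had 0.163 and 0.113 CPM in S3, against 1.57 and 2.17 CPM in S2 (-3.77 ± 0.62). In these 3 genes the libraries of each stage stayed apart from those of the other. Gm7957 and Gm50193 were named for their large falls, which favours this, and other genes were not checked for it. Gm21293, a coding gene on chromosome 10, had 0.252 and 0.136 CPM in S2, against 2.69 and 3.85 CPM at P25 (-4.0 ± 0.62). Gm4779 did not follow, with 104 and 98.2 CPM in S3, against 65.2 and 66.1 CPM in S2 (0.59 ± 0.19, below the fold limit). It made up most of the S3 sum, and without Gm4779 the others summed to 49.4 and 54.1 CPM in S3, against 206 and 228 CPM in S2 (Gm4779 was set apart after its values were seen). Of the families, 12 of 13 Eif1a-like, 4 of 4 Tcstv1-like and 4 of 4 Crnkl1-like genes fell in S3, and 1 of 7 Tdpoz-like genes.

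Later, in S5, 97 of the 150 genes were higher than in S3 and 2 lower, where 14.1% of all tested genes rose and 8.5% fell. The median log2 fold change was 2.48 with zero groups at their floor and 25 members left out for low counts. Sums were 293 and 287 CPM in S5, against 154 and 152 CPM in S3, and without Gm4779 they were 264 and 255 CPM in S5, against 49.4 and 54.1 CPM in S3. Gm13078 had 16.2 and 17.5 CPM in S5, against 1.35 and 1.45 CPM in S3 (3.67 ± 0.22, adjusted p = 3.84e-16, edgeR). Gm10424, a C87414-like coding gene on chromosome 5, had 1.34 and 1.14 CPM in S5, against 0.0466 and 0 CPM in S3 (5.66 ± 0.91). Gm6489, an Alyref-like processed pseudogene on chromosome 1, had 1.04 and 2.19 CPM in S5, against 0.0932 and 0.0452 CPM in S3 (4.59 ± 0.63). Both genes that fell lie outside the multicopy families. Gm47896, one of the lncRNA genes with the shared start shown above, had 0.0864 and 0.105 CPM in S5, against 1.96 and 2.10 CPM in S3 (-4.28 ± 0.71), and Gm4779 had 28.6 and 31.2 CPM in S5, against 104 and 98.2 CPM in S3 (-1.67 ± 0.20). Extraembryonic endoderm markers summed to 2641 and 2785 CPM in S5, against 790 and 856 CPM in S3, and their part was not tested.

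**Figure D4:**
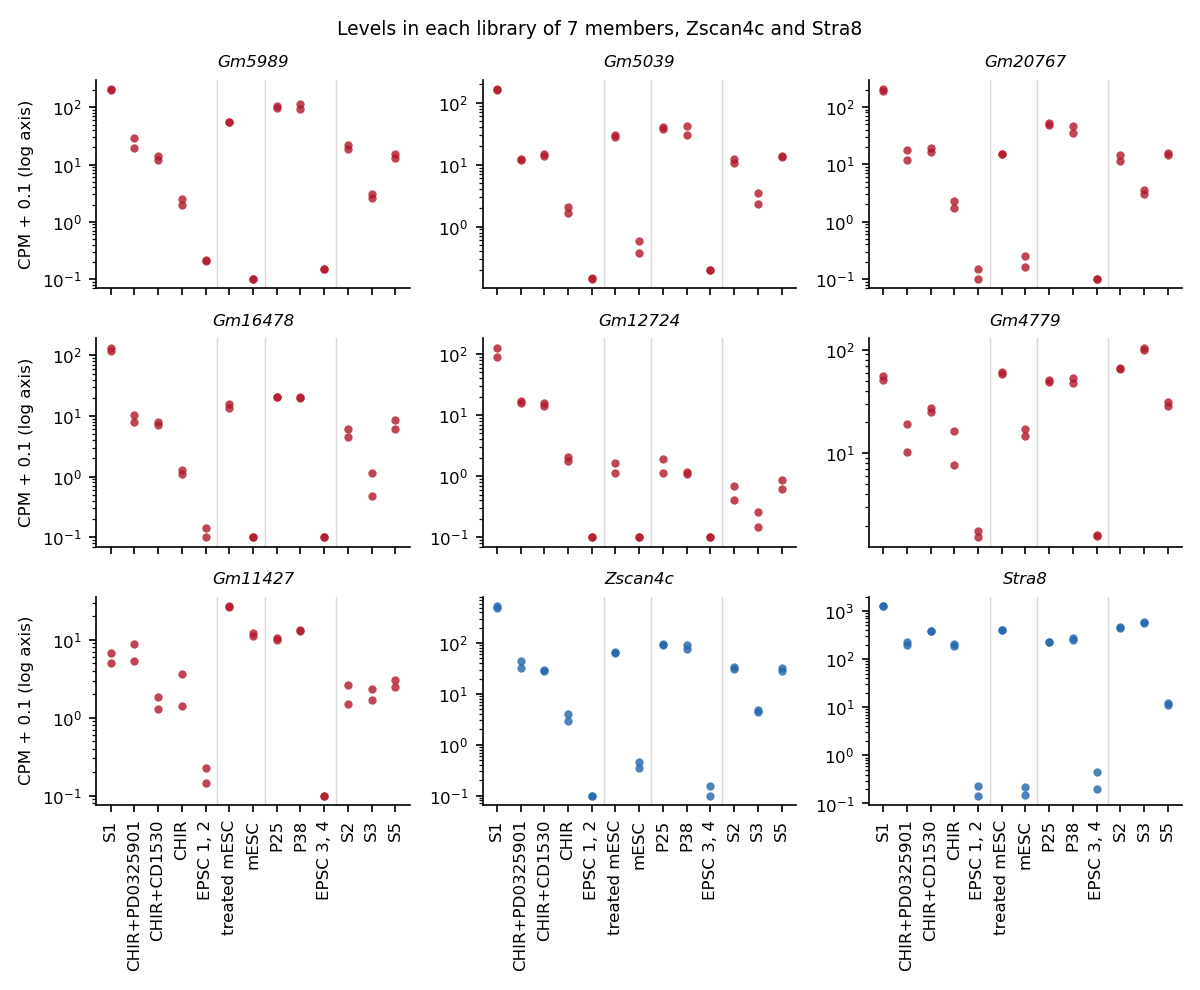
CPM + 0.1 of 7 of the genes, of Zscan4c and of Stra8 in each library (points) of 13 groups, on log axes. Gm5989 stands at 201 and 205 CPM in S1, 98.6 and 107 CPM at P25, 2.49 and 2.99 CPM in S3 and 14.9 and 12.7 CPM in S5, while Gm4779 stands at 104 and 98.2 CPM in S3.

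Single agents were left out of the 4C-64C medium at S2 and S3. Without Birabresib, 97 of 150 rose at S3 and none fell, where 5.75% of all tested genes rose, and the median log2 fold change was 2.36 with zero groups at their floor and 22 members left out for low counts. At S2, 5 genes were called higher without Birabresib (Gm29824, Gm11784, Gm12794, Gm4285 and Gm6489), a share near the 2.85% of all tested genes that rose. This count was 1 without S2 library 1, 3 without S2 library 2 and 2 without library 1 of the omission. Sums were 369 and 359 CPM without Birabresib at S3, against 154 and 152 CPM in S3, and 444 and 400 CPM without it at S2, against 271 and 294 CPM in S2. Whether the S3 response differed from the S2 response was not tested. Gm7957 had 7.86 and 7.43 CPM without Birabresib at S3, against 0.280 and 0.814 CPM in S3 (3.73 ± 0.28, adjusted p = 1.05e-11, edgeR). Gm21731, a Tcstv1-like coding gene, had 0.928 and 1.16 CPM without Birabresib, against 0.0466 and 0.0452 CPM in S3 (4.37 ± 0.73). Gm4779 had 96.3 and 95.5 CPM without Birabresib, against 104 and 98.2 CPM in S3, and was not called. Trophectoderm markers also moved with this omission at S3, with 894 and 896 CPM against 484 and 459 CPM in S3, and their part was not tested.

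Omission of CD1530 went the other way. At S3, 39 genes fell and none rose, where 3.82% of all tested genes fell, and the median log2 fold change was -1.50 with zero groups at their floor and 43 members left out for low counts. The count was 24 without S3 library 2 and 22 without library 2 of the omission. At S2, 16 fell and none rose, where 1.61% fell, and this count was 6 without S2 library 2 and 7 without library 2 of the omission. Gm21761, a Tcstv1-like coding gene, had 0.0877 and 0.207 CPM without CD1530, against 1.07 and 1.54 CPM in S3 (-2.95 ± 0.37, adjusted p = 2.65e-07, edgeR). Gm21818 of the same family had 0.132 and 0.173 CPM without CD1530, against 1.12 and 0.950 CPM in S3 (-2.61 ± 0.35). At S2, Gm21319 had 0.241 and 0.931 CPM without CD1530, against 1.82 and 2.30 CPM in S2 (-1.73 ± 0.39). Of the families, 9 of 13 Eif1a-like, 4 of 7 Tdpoz-like and 3 of 4 Tcstv1-like genes fell at S3. Apart from Gm4779 the genes summed to 17.6 and 16.2 CPM without CD1530, against 49.4 and 54.1 CPM in S3. Germ cell markers summed at S3 to 257 and 251 CPM without CD1530, against 950 and 925 CPM in S3, trophectoderm markers to 812 and 834 CPM against 484 and 459 CPM, and feeder markers to 57.4 and 63.3 CPM against 142 and 154 CPM. At S2, germ cell markers summed to 303 and 321 CPM without CD1530, against 837.5 and 808 CPM in S2. Their part in the fall was not tested.

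Without CHIR-99021, 25 genes rose and 2 fell at S3, where 5.04% of all tested genes rose and 4.11% fell. Gm7957 had 2.17 and 2.33 CPM without CHIR-99021, against 0.280 and 0.814 CPM in S3 (2.09 ± 0.31, adjusted p = 1.53e-06, edgeR). Gm11545, a Tmem92-like unprocessed pseudogene on chromosome 11, fell instead, to 0.153 and 0.102 CPM without CHIR-99021, against 1.40 and 1.47 CPM in S3 (-3.40 ± 0.59). Extraembryonic endoderm markers summed to 2148 and 2110 CPM without CHIR-99021, against 790 and 856 CPM in S3, and trophectoderm markers to 1108 and 1090 CPM against 484 and 459 CPM, and their part was not tested. At S2 this omission called none of the 150 (edgeR), where 5.07% of all tested genes were called in either direction. There, 10 of the 150 had an unadjusted p below 0.05, DESeq2 called 2, and the edgeR count was 1 without S2 library 2 and 4 without library 1 of the omission. Without 8Br-cAMP, 4 genes rose and 3 fell at S3, where 2.83% rose and 3.8% fell, and the count of 7 was 2 without library 2 of the omission. Gm47896 had 0.820 and 0.431 CPM without 8Br-cAMP, against 1.96 and 2.10 CPM in S3 (-1.63 ± 0.57). At S2 the omission of 8Br-cAMP lowered Gm44739 and Gm1995, where 1.28% of all tested genes fell, and this count of 2 was 1 without S2 library 2 and 0 without library 1 of the omission. Gm1995 had 1.63 and 2.03 CPM without 8Br-cAMP, against 3.22 and 4.50 CPM in S2 (-1.10 ± 0.27). For 8Br-cAMP these shares lie near those of all tested genes.

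In the peri-implantation medium, leaving out XAV 939 raised 54 of the 150 genes and lowered none, where 1.13% of all tested genes rose. The median log2 fold change was 1.28 with zero groups at their floor and 17 members left out for low counts, and the count was 27 without S5 library 2. Sums were 684 and 728 CPM without XAV 939, against 293 and 287 CPM in S5. Gm5989 had 45.9 and 46.6 CPM without XAV 939, against 14.9 and 12.7 CPM in S5 (1.70 ± 0.15, adjusted p = 2.96e-09, edgeR). Gm20767 had 43.9 and 38.2 CPM without XAV 939, against 14.1 and 15.8 CPM in S5 (1.40 ± 0.16). Gm21936, an Eif1a-like coding gene, had 1.54 and 1.06 CPM without XAV 939, against 0.238 and 0.190 CPM in S5 (2.54 ± 0.61). Both libraries without XAV 939 lay above both S5 libraries in these genes, of which Gm21936 was named for its large rise here. Pluripotency markers summed to 2395 and 2190 CPM without XAV 939, against 1606 and 1371 CPM in S5, and their part was not tested.

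Without FGF4, 10 genes rose at S5 and none fell, where 2.12% of all tested genes rose, and the count was 6 without S5 library 2 and 6 without library 2 of the omission. Gm13083, a Pramef6-like coding gene on chromosome 4, had 13.2 CPM in both libraries without FGF4, against 5.34 and 4.28 CPM in S5 (1.36 ± 0.31, adjusted p = 0.00175, edgeR). Gm50216 had 1.64 and 1.31 CPM without FGF4, against 0.475 and 0.148 CPM in S5 (2.14 ± 0.62). Extraembryonic endoderm markers summed to 667 and 755 CPM without FGF4, against 2641 and 2785 CPM in S5, and their part was not tested. Neither the omission of Activin A nor that of BMP4 gave a call among the 150 (edgeR), where 1.12% and 0.0559% of all tested genes were called in either direction. At an unadjusted p below 0.05, 7 of the 150 differed in each, DESeq2 called 0 in both, and without library 2 of the Activin A omission the edgeR count there was 1.

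Of the named genes that these copies resemble, 5 outside the list of known 2-cell genes were looked at (Eif1a, Crnkl1, Rbbp6, Rexo1 and Alyref). Eif1a had a mean of 201 CPM in treated mESCs, against 159 CPM in mESCs (0.27 ± 0.12), and 187 CPM at P25, against 237 CPM in EPSC libraries 3 and 4 (-0.45 ± 0.12), and neither passed the fold limit. Crnkl1 had 41.8 CPM at P25, against 67.6 CPM in EPSCs (-0.79 ± 0.10), and Rbbp6 had 166 CPM at P25 and in EPSCs (-0.10 ± 0.14). None of the 5 was called in treated mESCs, at P25, in S3 against S2 or in S3 without Birabresib. Of all tested genes, 22.5%, 18.7%, 5.28% and 6.21% were called there in either direction. In each of these comparisons 12 or 13 of the 13 Eif1a-like members were called. Those members were chosen by their S1 and EPSC levels and are near-copies, so they are not separate responses, and copies and named genes were not tested against each other.

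Genes that share the 110-base start but are not members followed in part. Of 69 such genes among the counted ones, 60 were tested, and 29 rose and 1 fell at P25 and 28 rose and 1 fell in treated mESCs, where 13.2% and 14.2% of all tested genes rose. Of the 29 members with the stretch, 27 rose at P25 and 26 in treated mESCs. The list of 48 known 2-cell genes outside the Gm names, of which 44 were tested, stands beside the members. In treated mESCs 37 of the 44 rose and at P25 41. With CD1530 34 rose, where 9.74% of all tested genes rose, and with PD0325901 34, where 3.27% rose. Without Birabresib at S3 35 rose, where 5.75% of all tested genes rose, and without XAV 939 at S5 26, where 1.13% rose. None of the 44 fell in these comparisons. In S3 against S2, 31 of the 44 fell and none rose, where 3.37% of all tested genes fell.

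The 20 groups of the second set seem to share counting over exons. Within them, 48 of the genes had their highest mean at P25, 41 in S5 without XAV 939, 23 at P38 and 14 in treated mESCs. Where other genes had their highest mean was not counted, so whether these counts are particular to the 150 genes is not known. The mean log2(CPM + 0.1) of each gene in the 20 groups was set against that of Zscan4c, a marker of the 2-cell-like state. For the 146 genes with counts there, the correlation ran from -0.01 to 0.99 with a median of 0.89, and 71 reached 0.9. Over all 26 groups the median over the 150 genes was 0.86 and 57 reached 0.9. These include the S1 and EPSC libraries that chose the genes, and mix counting over whole gene spans with counting over exons. The most alike over all groups were Gm5039, Gm20767, Gm21939, Gm8300 and Gm8332, at 0.98 to 0.99, and within the second set they stood at 0.98 to 0.99 as well. The least alike over all groups were Gm15155, Gm49987, Gm28376, Gm32828 and Gm49729, of which Gm49987 and Gm49729 had no count in the second set. With Stra8, a gene of meiotic entry that retinoic acid induces, the median was 0.38 within the second set and 0.47 over all groups, and the highest was Gm47896, at 0.90 and 0.81. These correlations describe group means and not independent samples. They were not computed for other genes, so how many genes outside the 150 are as alike is not known.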

How the data were processed

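Per the labels' protocols, poly(A) RNA was isolated, fragmented and copied from random primers, and an Illumina HiSeq instrument read the libraries from both ends. Per the submitters' processing notes, Trimmomatic 0.39, STAR 2.7.10b and featureCounts 2.0.6 were used with mm10. Not given in the sources used here are the gene annotation, the strand option and how read pairs and multiply mapping reads were handled. What the authors deposited are unscaled whole-number counts per gene in a single table of 52 libraries, and every column was joined to its sample by the column name in the labels.

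CPM are counts over the column total. Counts were tested with edgeR 4.0.16 (quasi-likelihood F test, TMM scaling, filterByExpr, 25056 genes kept) in R 4.3.3, in 1 fit over all 52 libraries with 1 mean per group, for 24 comparisons. All tested genes entered the Benjamini-Hochberg adjustment, and a gene was called when the adjusted p stayed under 0.05 with a log2 fold change of at least 1 in either direction. Errors beside log2 fold changes are SE. Against a group at 0, a fold is a lower bound that sets the group at 3 counts in sum, and it covers counting error only. The test was tried on simulated counts first. Identities came from BLAST+ 2.17.0 on GENCODE M21 transcripts, at 75% identity or more over 50% or more of the length, and the shared start was searched at 90% identity or more over at least 60 of its 110 bases.

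The genes, lists and naming rule were chosen with earlier results of these data known. Genes were named as those with the highest rank or S1 level, with the largest changes in a comparison at a mean of 1 CPM or more (up to 4 each way in main comparisons, 2 in others), at the rank limit, or most or least like Zscan4c and Stra8. Parts of the rule are named in part, and single genes in counts of 5 or fewer, in the difference of responses, among genes with few counts in the second set and among the shown sequences were chosen after their values were seen. Alternatives were RLE size factors, no filter, DESeq2 1.42.0, the replicate number as a block, each library left out in turn and other selection rules. The 2 symbols that the choice sets aside are not reported here.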

Additional observations from a re-analysis of the deposited data

Results flagged for a closer look

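The difference of responses, treated mESCs over mESCs set against P25 over EPSC libraries 3 and 4, was marked for a closer look. It called 9 of the 150 genes (edgeR, Benjamini-Hochberg over all tested genes). Of all tested genes, 7.94% were called in the same direction and 14% in either, so the 150 genes were not called more often than genes in general. However, 120 of the 150 had no count in EPSC libraries 3 and 4, and 95 had none in mESCs. Many differences could thus hardly be measured, and a missing call does not show that the responses were alike. Cell line, starting medium, length of treatment and, it seems, the counting of read pairs differ together and cannot be told apart. The 9 genes were Gm11427, Gm13078, Gm13083, Gm2016, Gm20513, Gm20767, Gm21761, Gm4779 and Gm5039, and every difference was negative. For Gm13078 the means were 5.6 CPM in treated mESCs against 0.202 CPM in mESCs, and 25.1 CPM at P25 against 0.0257 CPM in EPSCs. Gm5039 had 29.4 CPM in treated mESCs against 0.377 CPM in mESCs, and 39.0 CPM at P25 against 0.102 CPM in EPSCs (difference of log2 responses -2.25 ± 0.65, adjusted p = 0.00837, edgeR). In Gm11427, Gm13083, Gm2016, Gm20513, Gm20767 and Gm21761 the EPSC libraries had no count, so the size of those differences is not bounded.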

How the results depend on the processing

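No result reversed its direction under any alternative. Of 193 recomputed counts of called genes, 165 stayed within 1.5 times the value reported and 28 did not. Of the other recomputed results, 435 were marked the same, 46 weaker and 1 moved. Without the filter on low counts, the count was 1 for P38 against P25, 4 with Elvitegravir, 4 for S2 without 8Br-cAMP, 3 for S2 without CHIR-99021, 11 for S3 without 8Br-cAMP and 18 for S5 without FGF4. DESeq2 called 1 with Elvitegravir, 5 for S2 without 8Br-cAMP, 2 for S2 without CHIR-99021, 12 for S3 without 8Br-cAMP and 16 for S5 without FGF4. The cause was not tested. Another minimum of 10 CPM in S1 kept 93 of the 150 genes.

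Leaving out 1 library gave 109 to 115 called genes for treated mESCs, 105 to 116 for P25, 105 to 117 for P38, 0 for P38 against P25, 0 to 10 with Elvitegravir, 102 to 109 with PD0325901, 109 to 128 with CD1530, 10 to 14 for CD1530 against PD0325901, 65 to 71 for S2, 55 to 62 for S3 and 81 to 91 for S5. At S2 the omissions gave 1 to 4 (Birabresib), 0 to 3 (8Br-cAMP), 0 to 4 (CHIR-99021) and 6 to 17 (CD1530). At S3 they gave 69 to 80, 2 to 6, 19 to 22 and 22 to 36 in the same order. At S5 they gave 0 to 1 (Activin A), 0 (BMP4), 6 to 13 (FGF4) and 27 to 40 (XAV 939). The difference of responses gave 6 to 10.

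Replicate numbers are shared only as numbers. With the replicate number as a block the counts were 117 for treated mESCs, 121 with PD0325901, 139 with CD1530, 86 for S2, 79 for S3, 101 for S5, 96 for S3 without Birabresib and 51 for S5 without XAV 939, so the block moved none of them by over 1.5 times. Deviations of same-numbered libraries correlated from -0.03 to 0.05, except 0.43 for PD0325901 against CHIR-99021 alone. No paired analysis was possible because the EPSC libraries of the second set carry the numbers 3 and 4, for P25 and P38 against EPSCs and for the difference of responses. RLE scaling moved the median of all genes by less than 0.1 on the log2 scale. With counts at or near 0 in untreated cells, the size of a rise is known only as a bound.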
